A study of Homo sapiens with 8 samples.

Results

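MDAH-2774 cells (MDAH), an established human epithelial ovarian cancer line, were compared with and without silencing of SFPQ. The comparison rests on 4 of the 8 single-colour Agilent arrays of the study: 2 MDAH samples that carry a lentiviral short hairpin RNA (shRNA) against SFPQ, sh-SFPQ#2 in one and sh-SFPQ#3 in the other, and 2 MDAH control arrays. By their labels both controls carry a control shRNA, whereas the study's methods name 1 parental and 1 control-shRNA sample for each line, and the controls are therefore taken only as cells that were not silenced. The other 4 arrays hold the same design in SKOV3 cells, another ovarian cancer line, and were used for the estimate of the spread and for the test of the difference between the lines. No label gives a drug treatment, and the time between transduction and collection is not given in the sources used here.

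SFPQ is a nuclear RNA- and DNA-binding protein of the DBHS family, whose other members are NONO and PSPC1. It takes part in splicing and transcription and is a core protein of paraspeckles, nuclear bodies built on the long non-coding RNA NEAT1. In neurons and muscle it is also known for its part in the transcription and processing of very long genes.

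The level of a gene is given throughout as the log2 of its background-corrected signal minus the 75th percentile of its array, and a change is the mean of the silenced arrays minus the mean of the controls on that log2 scale. Levels of different genes come from different probes and are set against each other only as the brightness of probes. SFPQ (NM_005066) had levels of 3.64 and 3.91 in the controls, then 2.45 under sh-SFPQ#2 and 2.10 under sh-SFPQ#3. Both silenced arrays lay below both controls, a change of -1.50 (SE 0.23, adjusted p = 0.0328 by limma). A single probe measured it, and the call was kept in 6 of 10 other ways of processing and in 1 of the 4 fits that left out an MDAH array, with a change between -1.68 and -1.31 throughout.

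The 2 silenced arrays were dimmer than the controls. Controls 1 and 2 had a 75th percentile of the signal of 496 and 483, the sh-SFPQ#2 array of 405 and the sh-SFPQ#3 array of 244. The shares of probes well above background were 56.7%, 57.0%, 50.2% and 47.7% in that order. The lowest level that counted as well above background was therefore higher in the silenced arrays, at -4.30 and -3.81 against -4.87 and -4.89. The differences between the controls had an SD of 0.31 over genes, and those between the 2 shRNAs an SD of 0.59. In bulk RNA, fewer cells and less RNA per cell cannot be told apart, and the position of an array on the slide cannot be told apart from its group. Each shRNA is 1 sample, and the labels and the methods differ on what the controls are, so the p-values measure only the spread between these samples, which may be technical.

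Of 10 ovarian epithelial markers, 7 were well above background on all 4 MDAH arrays, among them PAX8, EPCAM and the keratins KRT7, KRT8 and KRT18. MSLN and MUC16 were not well above background on any of the 4. The summed signal of the 10 markers, divided by the array's 75th percentile, was 269 in control 1, 324 in control 2, 342 under sh-SFPQ#2 and 372 under sh-SFPQ#3. The rise is that of KRT18, which gave most of the sum: without it the sums were 85.5, 89.7, 85.8 and 84.8, which overlapped. Of the 7 markers well above background on all 4 arrays, PAX8, EPCAM, WT1 and WFDC2 lay below both controls, KRT7 and KRT18 above them, and KRT8 overlapped. PAX8, a transcription factor of the Müllerian lineage, stood at 3.97 and 3.91 in the controls and at 3.35 and 3.34 in the silenced arrays, a change of -0.60 that did not pass the test (adjusted p = 0.0835).

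Markers of other cell types were mostly near background. Of 5 fibroblast markers, COL1A1 was well above background on all 4 arrays and COL1A2, DCN, LUM and PDGFRB on none. Of 3 endothelial markers, CDH5 was well above background on all 4, and of 4 leukocyte markers PTPRC, CD14 and CD68 were, while CD3E was on none. CD68, a lysosomal protein, had levels of 0.98 and 1.50 in the controls and 2.29 and 2.36 in the silenced arrays, a change of 1.08 that did not pass the test (adjusted p = 0.14). The summed signal of the leukocyte markers on the same scale was 2.73 and 3.61 in the controls and 5.63 and 5.90 in the silenced arrays, that of the fibroblast markers 0.583 and 0.702 against 1.20 and 1.60, and that of the endothelial markers, which overlapped, 0.163 and 0.200 against 0.171 and 0.289. The rise of the leukocyte sum is that of CD68, since without it the sums were 0.755 and 0.782 in the controls and 0.739 and 0.766 in the silenced arrays, and CD14 and PTPRC overlapped between the groups. The rise of the fibroblast sum is mostly that of COL1A1, the 1 measured member. COL1A1 had levels of -0.89 and -0.58 in the controls and 0.20 and 0.61 in the silenced arrays. The part of these markers in the results was not tested.

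Of 15546 genes tested, 316 passed the threshold of 0.05 on limma's adjusted p with both silenced arrays on the same side of both controls, which is 2.03% of the genes. Of these, 65 rose (0.418%) and 251 fell (1.61%), so that 79.4% of the calls were lower. At an unadjusted p under 0.05 there were 2041 higher and 1551 lower genes, and the median change over all genes was 0.10. Without regard to the test, both silenced arrays lay above both controls for 5528 genes (35.6%) and below them for 3328 (21.4%).

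The count rests on both controls. It was 9 without control 1, 14 without control 2, 1091 without sh-SFPQ#2 and 184 without sh-SFPQ#3, 91 with the replicate and shRNA number as a block, and 92 where the gene had to be well above background on all 4 MDAH arrays. Where another background correction, scaling, filter or choice of probes was used, every called gene that was measured kept its sign, except MSI2, HIPK2 and KALRN when probes of a gene were averaged; in the fits without 1 array the rule for a call fixes the sign.

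Among the called genes, 140 were well above background on all 4 MDAH arrays, 50 that rose and 90 that fell. Another 129 fell to a level that was not well above background on either silenced array, so no fold is measured for them. A lower bound of the fold can be given for 104 of these, computed against the lowest level well above background on each silenced array or the gene's own signal where that was higher. These genes entered the test through another group, in which they were well above background. Among the genes well above background on all 4 arrays, the median fold was 2.35 for the 50 that rose and 2.84 for the 90 that fell. Of these 90 genes, 74 had a lower level with sh-SFPQ#3 than with sh-SFPQ#2, while 46.8% of all genes measured on the 4 arrays did.

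The increases were fewer. DCLK1, a kinase that binds microtubules, had levels of -2.98 and -2.69 in the controls, then 0.28 under sh-SFPQ#2 and 1.81 under sh-SFPQ#3. It rose by 3.88 (SE 0.52, adjusted p = 0.0224), the largest increase among genes well above background on all 4 arrays. ACOX2, a peroxisomal oxidase of branched-chain fatty acids and bile acid intermediates, went from -3.81 and -3.02 to -0.79 and -0.25, a change of 2.90 (SE 0.41, adjusted p = 0.0262). Both genes were separated from their controls by more than the controls differed from each other.

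MSH4, a MutS homologue of meiotic recombination, stood at -3.98 and -4.10 in the controls and at -1.74 and -1.06 in the silenced arrays (2.64, SE 0.39, adjusted p = 0.0288). SULT4A1, a sulfotransferase known mainly from brain, stood at -2.75 and -2.62 and then at -0.23 and -0.09 (2.53, SE 0.45, adjusted p = 0.0488). Neither gene had an array of one group within the range of the other. GRAMD1B, a sterol transfer protein, rose by 1.85.

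Among transcription factors, ETV4, a member of the PEA3 group of ETS factors, rose from -2.14 and -1.62 to -0.34 and 0.04 (1.73, SE 0.30, adjusted p = 0.0442). TWIST2, a repressor linked to mesenchymal identity, rose from -2.50 and -2.13 to -0.83 and -0.39 (1.71, SE 0.21, adjusted p = 0.0171). SNAI1, the repressor of E-cadherin, rose from 1.47 and 1.63 to 2.49 and 2.31 (0.85, SE 0.15, adjusted p = 0.0488). Of 10 other ways of processing, the call was kept in 3 for SNAI1, 8 for TWIST2 and 6 for ETV4. In each of the 3 genes the shRNAs gave similar levels, apart from both controls. TWIST2 and SNAI1 were the called members of the 39 epithelial and mesenchymal markers tested, where 0.418% of all genes rose. The median change of the list was 0.14 beside 0.10 for all genes, and no member of it was called lower. Of the list 38.5% lay above both controls and 17.9% below, beside 35.6% and 21.4% of all genes. In SKOV3 cells TWIST2 and SNAI1 lay below both controls and ETV4 above them, and none of the 3 was called.

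Also among the 15 largest increases were the RNA-binding protein MSI2 (1.73), the kinase HIPK2 (1.64), the cytoskeletal protein SPECC1 (1.53), the guanine nucleotide exchange factor KALRN (1.47) and SUFU (1.44), an inhibitor of Hedgehog signalling. All 5 have another probe that moved the other way, and with the probes averaged the changes of MSI2, HIPK2 and KALRN were -0.17, -1.38 and -0.10. Their values hold for the brightest probe only. Of 79 called genes with other measured probes, 67 had all probes in the same direction.

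**Figure D1:**
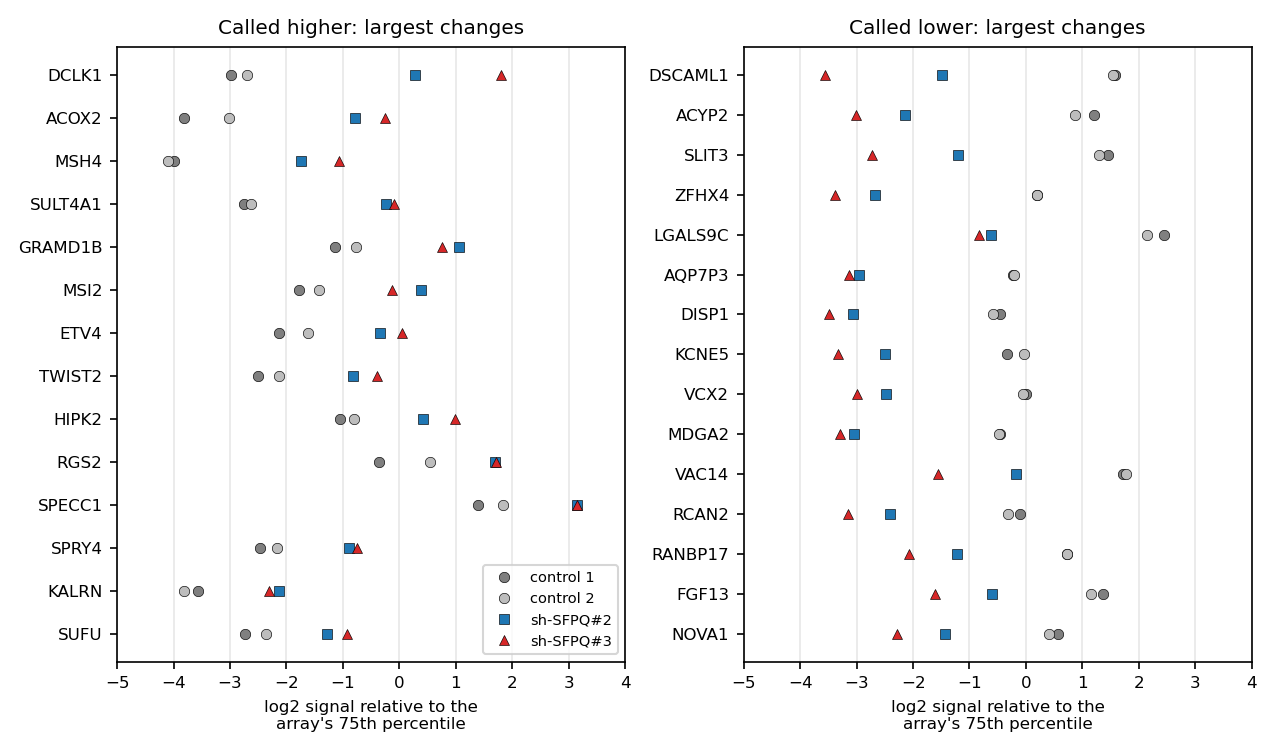
Level of 14 of the 15 genes that rose most (left) and of the 15 that fell most (right) among called genes well above background on all 4 MDAH arrays. Each point is 1 array, on a log2 scale relative to the 75th percentile of that array, with circles for controls, squares for sh-SFPQ#2 and triangles for sh-SFPQ#3, and in every gene the silenced points lie apart from the control points, as for DCLK1 at 0.28 and 1.81 against -2.98 and -2.69.

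The 15 largest decreases included adhesion and guidance molecules. DSCAML1, a cell adhesion molecule of the Down syndrome cell adhesion family, had levels of 1.57 and 1.54 in the controls, then -1.48 under sh-SFPQ#2 and -3.57 under sh-SFPQ#3, a change of -4.08 (SE 0.73, adjusted p = 0.048). SLIT3, a secreted ligand of ROBO receptors, had 1.45 and 1.29 and then -1.20 and -2.73 (-3.34, SE 0.54, adjusted p = 0.0376). MDGA2, a membrane protein that binds neuroligins, had -0.46 and -0.48 and then -3.04 and -3.30 (-2.70, SE 0.16, adjusted p = 0.00161). For MDGA2 the shRNAs gave nearly the same level, while DSCAML1 and SLIT3 were lower with sh-SFPQ#3.

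ACYP2, an acylphosphatase, fell from 1.20 and 0.87 to -2.14 and -3.01 (-3.60, SE 0.35, adjusted p = 0.00866). DISP1, which releases Hedgehog ligands from the cell that makes them, fell from -0.45 and -0.58 to -3.07 and -3.50 (-2.76, SE 0.23, adjusted p = 0.0065). The silenced arrays of both genes were far below the controls with either shRNA. ACYP2 and MDGA2 passed the test in all 10 other ways of processing, and in 2 and 3 of the 4 fits that left out an MDAH array. DSCAML1 and VAC14 passed in 3 of the 10 and RANBP17 in 4, and each in 1 of the 4 fits.

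The remainder of the 15 largest decreases were ZFHX4 (-3.22), a zinc finger homeobox factor, LGALS9C (-3.03), AQP7P3 (-2.83), KCNE5 (-2.73), VCX2 (-2.71), VAC14 (-2.61), a scaffold of the complex that makes phosphatidylinositol 3,5-bisphosphate, the calcineurin regulator RCAN2 (-2.58), RANBP17 (-2.38), FGF13 (-2.36) and NOVA1 (-2.35). LGALS9C, AQP7P3 and VCX2 have near-identical gene copies, and their probes may not tell the copies apart.

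Genes that fell were longer than genes that rose, a comparison made after the data were seen. All 15546 genes have a length, from start to end, in the RefSeq table of a later genome build than the one the arrays were designed on. The genes that fell had a median length of 145 kb, those that rose 32.1 kb, and all tested genes 26.4 kb. Of the 251 genes that fell, 68 (27.1%) were over 300 kb long and 141 (56.2%) over 100 kb, where 3.59% and 17.2% of all tested genes are. Among the 90 that fell and were well above background on all 4 arrays, the median length was 81.6 kb, and 9 were over 300 kb long and 42 (46.7%) over 100 kb.

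By length, 0.887% of the 4057 genes of up to 10 kb were called lower, 0.535% of the 4300 genes of 10 to 30 kb, 1.13% of the 4518 genes of 30 to 100 kb, 3.45% of the 2113 genes of 100 to 300 kb and 12.2% of the 558 genes over 300 kb. The share of genes called higher lay between 0.331% and 0.896% in the 5 groups. The share with both silenced arrays below both controls was 16.6%, 14.3%, 18.5%, 39.4% and 66.5% in the same order. The median change was 0.14, 0.17, 0.12, -0.13 and -0.88.

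With both shRNAs the genes over 300 kb had the lowest median, followed by those of 100 to 300 kb. Over the genes longer than 300 kb the median change was -0.63 with sh-SFPQ#2 and -1.11 with sh-SFPQ#3. Across the 14 alternatives it stayed between -1.11 and -0.44, and that of genes of 100 to 300 kb between -0.18 and -0.02. Probes of the longest genes were dim, with a median control level of -0.91 beside 0.73 over all genes, and the part of this in the order was not tested. Among genes whose mean over the 8 arrays was above the 75th percentile, the 157 genes over 300 kb had a median change of -0.49, and 65.0% of them lay below both controls, beside 15.7% of all such genes. Of these 157 genes 2 (1.27%) were called lower, beside 30 (0.334%) of all 8970 such genes.

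**Figure D2:**
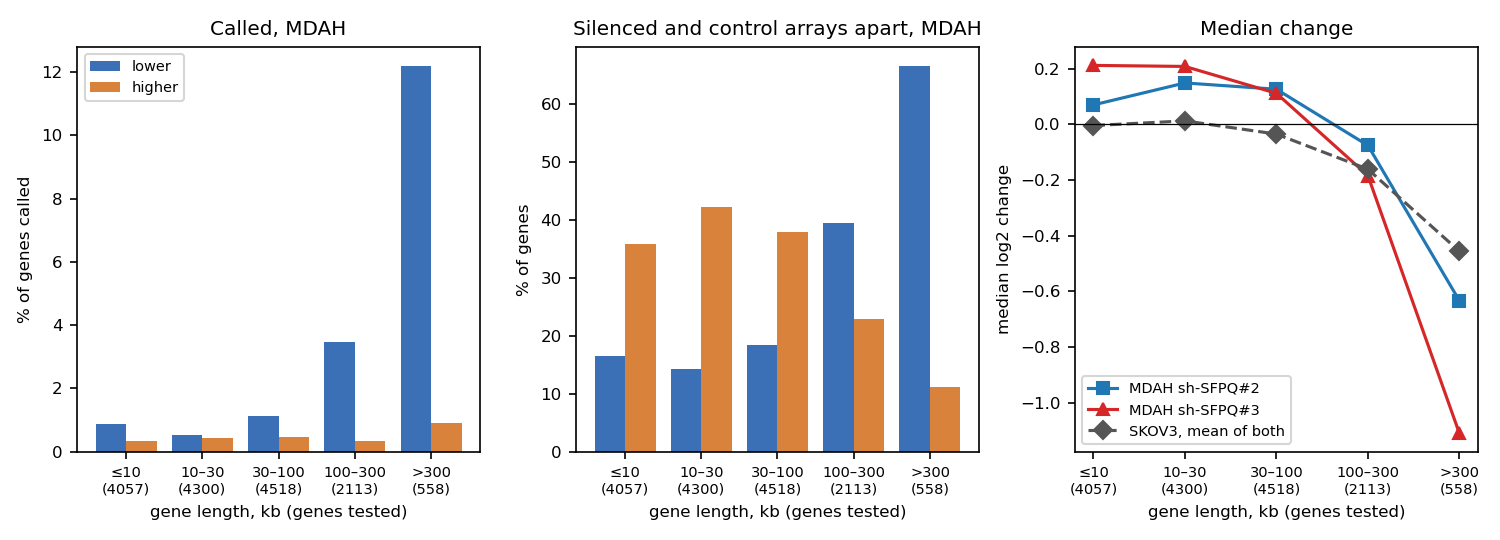
Changes by gene length in 5 groups, with the number of genes tested under each: the percentage of genes called higher or lower in MDAH cells (left), the percentage with both silenced arrays above or below both controls (centre), and the median log2 change with each shRNA in MDAH cells and in SKOV3 cells (right). The percentage called lower goes from 0.887 in the shortest genes to 12.2 in the longest, and the median MDAH change of the longest genes is -0.63 with sh-SFPQ#2 and -1.11 with sh-SFPQ#3.

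Among the longest genes that fell, picked after their values were seen, were FHIT (1504 kb), a tumour suppressor at a common fragile site, DPP10 (1403 kb), a partner of potassium channels, and MACROD2 (2058 kb), a hydrolase of ADP-ribose. FHIT had levels of -0.83 and -1.28 in the controls and -4.57 and -5.70 in the silenced arrays, at least 7.99-fold lower (adjusted p = 0.00737). DPP10 had 0.04 and -0.36 and then -3.91 and -5.08, at least 13-fold lower (adjusted p = 0.0065). Neither was well above background after silencing. Not every long gene fell: DCLK1, MSI2, SPECC1 and KALRN, of 363, 446, 310 and 693 kb, rose, of which DCLK1 alone had no probe in the opposite direction.

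Surface molecules with known roles in the nervous system made up several of the groups with many decreases. Of 62 neuronal and synaptic adhesion molecules tested, 8 fell and none rose, where 1.61% of all genes fell. Both silenced arrays lay below both controls for 31 members and above them for 13, beside 21.4% and 35.6% of all genes, and the median change was -0.28. NLGN1, a postsynaptic neuroligin, went from -0.79 and -0.74 to -3.63 and -5.57 (adjusted p = 0.0291) and was well above background on 1 of the 2 silenced arrays, so no size of its change is given. The teneurins TENM1 and TENM3 and the immunoglobulin molecule NCAM2 were well above background in the controls only, and were at least 3.50-fold, 1.23-fold and 2.20-fold lower. The median of the list was below that of all genes in each of the 15 settings, and it was above 0, at 0.07 over 105 members, with no filter on dim probes. Over the 44 members well above background on all 4 MDAH arrays it was -0.06, with 0 calls in the fit repeated on genes measured in this way, in which DSCAML1 had the same change of -4.08 and did not pass.

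In this list the decreases lay with the long genes. The 43 members over 100 kb had a median change of -0.80, with 7 of the 8 called genes, and the 19 shorter ones a median of 0.01. All genes over 100 kb had a median of -0.21. Of the 43 long members, 30 were over 300 kb and had a median of -1.15, beside -0.88 for all genes over 300 kb.

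Axon guidance ligands and receptors were split in the same way. Of 64 tested, 6 fell and none rose, where 1.61% of all genes fell and 0.418% rose, and the median was 0.05. SEMA5A, a transmembrane semaphorin, had levels of 1.24 and 0.98 in the controls, then -1.96 under sh-SFPQ#2 and -4.26 under sh-SFPQ#3 (adjusted p = 0.0319), again well above background on 1 of the 2 silenced arrays. The netrin receptor UNC5A and the ephrin EFNA5 were at least 3.19-fold and 2.23-fold lower. Of the 25 members over 100 kb, 19 lay below both controls and 1 above, with a median change of -0.91. Of the 39 shorter ones 23 lay above both controls and 5 below, with a median of 0.33. Of all 2671 genes over 100 kb, 1204 lay below both controls and 545 above, with a median of -0.21. Of the 12875 shorter genes 4983 lay above and 2124 below, with a median of 0.14.

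Genes of ion channels and receptors were also among the decreases. Of 82 potassium, sodium, calcium and TRP channel genes tested, 7 fell and none rose, and 39.0% lay below both controls, where 1.61% of all genes fell and 21.4% lay below both controls. KCNQ1, a voltage-gated potassium channel, had levels of -0.04 and -0.55 in the controls and -4.61 and -5.81 in the silenced arrays, at least 13.5-fold lower (adjusted p = 0.0146). KCNE5, an accessory subunit of such channels and a gene of 1.47 kb, fell from -0.33 and -0.04 to -2.50 and -3.34 (-2.73, SE 0.38, adjusted p = 0.0251). The calcium channel subunits CACNB2 and CACNA2D3 were at least 5.72-fold and 3.06-fold lower, and KCNAB2, a beta subunit of potassium channels, fell to a level that was well above background on 1 silenced array. The median of the list was -0.07, and it was above 0 with each array centred on its median (0.04), with no filter on dim probes (0.14 over 120 members) and over the 56 members well above background on all 4 MDAH arrays (0.03). The 37 channel genes over 100 kb held 6 of the 7 calls and had a median of -0.47. The 45 shorter ones had a median of 0.08, with 16 above both controls and 11 below. The 19 over 300 kb had a median of -0.58, beside -0.88 for all genes of that length.

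Of 23 genes on a list of glutamate, GABA and other neurotransmitter receptors, the metabotropic glutamate receptor GRM8 and the muscarinic receptor CHRM2 fell. None of the list rose, and of all genes 1.61% fell. GRM8 had -2.72 and -2.61 in the controls and -6.06 and -5.68 in the silenced arrays, and CHRM2 had -2.78 and -2.74 and then -5.64 and -6.01. They were at least 2.62-fold and 2.46-fold lower and were well above background in the MDAH controls only, through which they entered the test. Among G protein-coupled receptors and their regulators, ADGRB3 and RGS5 were at least 3.51-fold and 3.44-fold lower, and RGS2 rose.

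Developmental transcription factors, matrix genes and growth factors each held a few of the decreases. Of 128 HOX, SOX, FOX and other developmental factors, 6 fell and none rose, where 1.61% of all genes fell. The median change of the list was -0.00. HOXD3, of 20.6 kb, had levels of -1.28 and -1.46 in the controls and -4.33 and -4.76 in the silenced arrays, at least 6.44-fold lower (adjusted p = 0.00161). FOXP2 was at least 1.64-fold lower, ZFHX4 fell by 3.22, and EYA4 fell and was well above background on 1 silenced array. The 32 members over 100 kb had a median of -0.88 and the 96 shorter ones 0.15, beside -0.21 and 0.14 for all genes of these lengths.

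Of 93 integrins, collagens, laminins and other matrix genes, the collagens COL5A2, COL4A3 and COL25A1 fell, to levels at least 4.59-fold, 3.33-fold and 1.53-fold lower, and none rose, which is 3 of 93 genes beside 1.61% of all genes, and the median of the list was 0.04. Of 56 receptor tyrosine kinases and ligands, FGF13, FGF12 and PDGFD fell and none rose, where 1.61% of all genes fell. The 21 members over 100 kb held these 3 calls and had a median of -0.91, beside -0.21 for all genes over 100 kb. The 35 shorter ones had a median of 0.08, beside 0.14 for all shorter genes. FGF12 and PDGFD were not well above background on either silenced array. FGF12 was at least 4.31-fold lower, and for PDGFD no lower bound of the fold can be given. FGF13, which acts inside the cell on sodium channels and microtubules, had 1.36 and 1.15 in the controls and -0.61 and -1.61 in the silenced arrays. ERBB4, a receptor of neuregulins chosen after its values were seen, went from 1.14 and 0.88 to -1.91 and -4.92, far apart between the shRNAs and well above background on 1 of these 2, and did not pass (adjusted p = 0.13). Of 38 genes of the Hippo list, the giant cadherin FAT4, its ligand DCHS1 and the RNA-binding protein RBMS3 were at least 1.79-fold, 1.34-fold and 1.34-fold lower. These were its 3 calls, where 1.61% of all genes fell, and none was well above background on either silenced array. FSTL1, a secreted follistatin-like protein, fell by 1.82, the 1 call among 52 genes of TGF-beta and BMP signalling, where 2.03% of all genes were called.

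**Figure D3:**
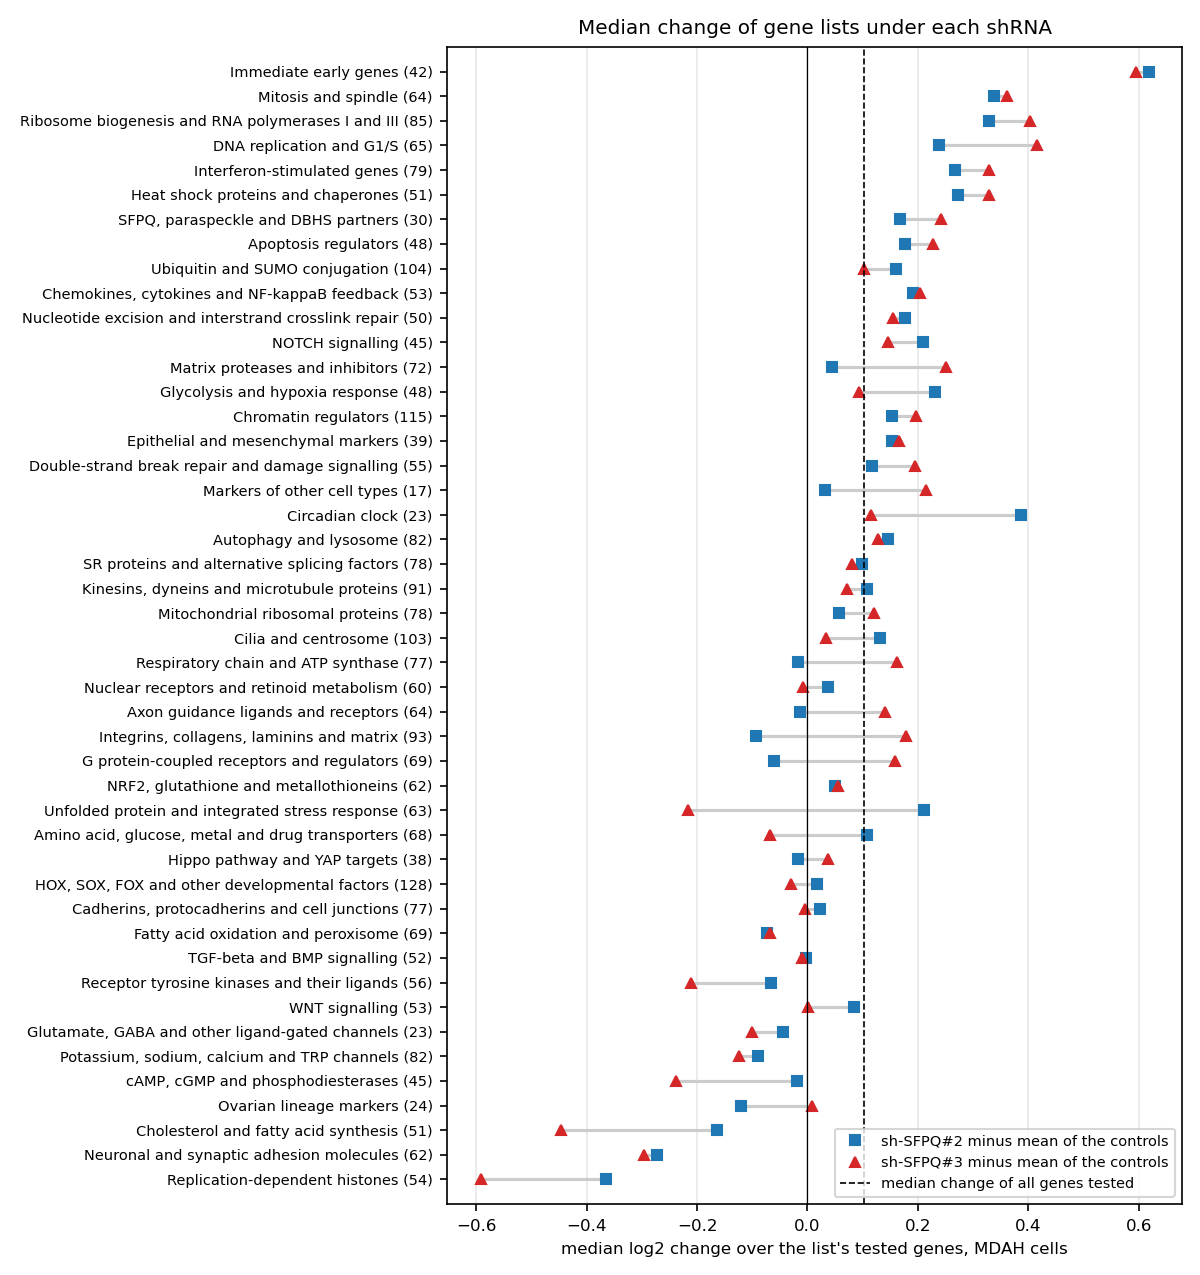
Median log2 change of the tested genes of the gene lists in MDAH cells, with sh-SFPQ#2 (squares) and sh-SFPQ#3 (triangles) each against the mean of the controls. The dashed line marks the median of all tested genes, 0.10, the number of genes tested stands in brackets, and replication-dependent histones lie lowest while immediate early genes lie highest.

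Replication-dependent histone genes, which are transcribed in S phase and make RNAs without a poly(A) tail, had the lowest median of the 48 lists. Of 54 tested, 2 fell and none rose, where 1.61% of all genes fell, and the median change was -0.53. Of the list 72.2% lay below both controls and 1.85% above, beside 21.4% and 35.6% of all genes. H3C10 had levels of 3.12 and 3.11 in the controls, then 1.57 under sh-SFPQ#2 and 2.17 under sh-SFPQ#3 (-1.25, SE 0.22, adjusted p = 0.0469). H4C1 had 3.08 and 3.01 and then 1.75 and 2.07 (-1.13, SE 0.17, adjusted p = 0.0299). Both fell by more with sh-SFPQ#2, while the median of the list was -0.37 under that shRNA and -0.59 under sh-SFPQ#3. With the replicate and shRNA number as a block, no gene of the list was called and its median was -0.19.

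The other histone genes mostly kept the same side without passing the test, as H3C11 (-1.41, adjusted p = 0.0628) and H2AC6 (-0.84, adjusted p = 0.0633), named after their values were seen. Histone genes are near-identical in sequence, so their probes may share transcripts and the members are not independent. The labelling kit primes on poly(A), and how much of each histone RNA it labels was not tested. The median of the list was between -0.62 and -0.19 in all 15 settings.

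The promoter of H3C10 is shown as an example of the letters that histone promoters share, with CCAAT and TATAAA in capitals. Its 300 bases come from RefSeq (GRCh38.p14, chr6:27809801-27810100, plus strand, 5′ to 3′).
H3C10: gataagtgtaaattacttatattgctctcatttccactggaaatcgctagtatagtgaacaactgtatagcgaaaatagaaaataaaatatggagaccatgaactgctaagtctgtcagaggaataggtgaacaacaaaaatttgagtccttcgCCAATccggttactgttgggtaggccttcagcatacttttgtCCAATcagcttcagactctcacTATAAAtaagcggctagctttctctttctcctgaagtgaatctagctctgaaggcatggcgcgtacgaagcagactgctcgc

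Searched on both strands, CCAAT was present in 44 of the 50 histone promoters in the table (88.0%) and TATAAA in 34 (68.0%). Over the 12066 tested genes with a promoter of the same length the shares were 36.5% and 6.66%. None of the letter strings searched here contains another. A match describes the sequence only.

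Genes of the rest of the cell cycle lay on the other side. Of 64 mitosis and spindle genes, none passed the test in either direction (21 higher and 0 lower at an unadjusted p under 0.05), but 70.3% lay above both controls and 3.12% below, beside 35.6% and 21.4% of all genes, with a median of 0.36. Without control 1 the median was 0.20, and with quantile normalization 51.6% lay above both controls. PLK1, the kinase of mitotic entry and exit, had levels of 1.89 and 2.25 in the controls, then 2.80 under sh-SFPQ#2 and 3.20 under sh-SFPQ#3 (0.93, SE 0.21, adjusted p = 0.0826). ESPL1, the protease that cleaves cohesin, had 3.28 and 3.72 and then 3.91 and 4.75 (0.83, adjusted p = 0.17). The groups do not overlap in either gene, and in both the array with sh-SFPQ#3 was the highest.

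Of 65 DNA replication and G1/S genes, 56.9% lay above both controls and 7.69% below, beside 35.6% and 21.4% of all genes. The median was 0.33 (0.19 without control 1), and there was no call (17 higher and 1 lower at an unadjusted p under 0.05). CCND1, the G1 cyclin D1, stood at 1.35 and 1.70 and then at 2.35 and 2.86 (1.09, SE 0.21, adjusted p = 0.063). POLA1, the catalytic subunit of DNA polymerase alpha and a gene of 303 kb, stood at 2.39 and 2.89 and then at 1.50 and 0.83 (-1.48, adjusted p = 0.0753). CDT1, a licensing factor named after its values were seen, had a change of 1.02 (adjusted p = 0.063).

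PLK1 had the largest change among the mitosis genes whose promoter holds TTTGAA, the core of the cell cycle homology region (CHR) known from G2 and M phase genes. The promoter is shown with TTTGAA and CCAAT in capitals (RefSeq, GRCh38.p14, chr16:23678639-23678938, plus strand, 5′ to 3′).
PLK1: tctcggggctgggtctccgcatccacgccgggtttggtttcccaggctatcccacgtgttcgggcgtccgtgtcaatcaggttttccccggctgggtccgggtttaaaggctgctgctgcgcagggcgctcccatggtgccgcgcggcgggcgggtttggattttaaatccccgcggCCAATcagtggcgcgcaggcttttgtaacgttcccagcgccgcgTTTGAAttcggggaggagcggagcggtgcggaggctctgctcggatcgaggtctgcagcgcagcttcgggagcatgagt

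TTTGAA was present on either strand in 34 of the 54 mitosis promoters (63.0%), beside 9.94% of the promoters of tested genes and 15.4% of all promoters. CCAAT was present in 40 of them (74.1%).

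Immediate early genes, which are transcribed within minutes of growth factor or stress signals, had the highest median of the lists, 0.65. Of 42 tested, 2 rose and none fell, where 0.418% of all genes rose. Of the list 71.4% lay above both controls and 7.14% below, beside 35.6% and 21.4% of all genes. RGS2, which turns off G protein signals, had levels of -0.35 and 0.54 in the controls and 1.70 and 1.72 in the silenced arrays (1.62, SE 0.29, adjusted p = 0.0478). SPRY4, a feedback inhibitor of receptor tyrosine kinase signalling, had -2.48 and -2.17 and then -0.88 and -0.75 (1.51, SE 0.23, adjusted p = 0.0319). The shRNAs agreed closely for both genes.

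Further members were above both controls without passing, among them the factors KLF2 (1.48, adjusted p = 0.0823) and NR4A3 (1.31, adjusted p = 0.0828), both named after their values were seen. EGR1 and FOS, likewise named after their values were seen, did not lie above the controls: EGR1 had 2.64 and 2.38 in the controls and 1.84 and 2.26 in the silenced arrays (-0.46, adjusted p = 0.25), and the 2 groups of FOS overlapped. The median of the list lay between 0.49 and 0.76 in the 15 settings.

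DUSP1, a phosphatase that switches off MAP kinases, had levels of 4.49 and 4.88 in the controls, then 5.43 under sh-SFPQ#2 and 5.58 under sh-SFPQ#3 (0.82, adjusted p = 0.162). Among the 2 members considered that lay above both controls and whose promoter holds TGACGTCA, the cAMP response element, it had the larger change. The element is in capitals (RefSeq, GRCh38.p14, chr5:172771146-172771445, minus strand, 5′ to 3′).
DUSP1: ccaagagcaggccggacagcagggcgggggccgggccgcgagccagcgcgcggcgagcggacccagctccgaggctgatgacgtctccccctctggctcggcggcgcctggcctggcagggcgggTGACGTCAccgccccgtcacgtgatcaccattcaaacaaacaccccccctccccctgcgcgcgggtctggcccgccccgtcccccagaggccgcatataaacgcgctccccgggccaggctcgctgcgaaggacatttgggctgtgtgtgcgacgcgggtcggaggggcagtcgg

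TGACGTCA was present in 4 of the 33 immediate early promoters in the table (12.1%), beside 3.01% of the promoters of tested genes. The AP-1 site TGACTCA was present in 1 of the 33, beside 3.34%.

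Interferon-stimulated genes had a median of 0.30 over 79 tested, beside 0.10 for all genes. Of the list 57.0% lay above both controls and 6.33% below, beside 35.6% and 21.4% of all genes. It held 2 genes that rose and none that fell, where 0.418% of all genes rose. PARP12, a mono-ADP-ribosyltransferase of this response, rose from 2.05 and 2.13 to 3.06 and 3.16 (1.02, SE 0.15, adjusted p = 0.0293), and the shRNAs gave almost the same level. RTP4 passed the test too, yet it was not well above background on any MDAH array, so no change is given for it. IFITM1 (1.24, adjusted p = 0.084) and IFIT3 (1.20, adjusted p = 0.115), named after their values were seen, lay above both controls without passing.

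Genes of ribosome production lay mostly above the controls. Of 85 tested, 81 had a change above 0, as did 9300 of all 15546 genes, and the median was 0.35. Of the list 69.4% lay above both controls and 0 below, beside 35.6% and 21.4% of all genes. POLR3A, the largest subunit of RNA polymerase III, had levels of 2.02 and 2.13 in the controls and 3.03 and 3.25 in the silenced arrays (1.06, SE 0.17, adjusted p = 0.0395). UTP15, a part of the small subunit processome, had 0.83 and 0.93 and then 1.66 and 1.71 (0.80, SE 0.13, adjusted p = 0.0413). These 2 were the calls of the list, where 0.418% of all genes rose, and none fell.

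Heat shock proteins and chaperones had a median of 0.28, between 0.14 and 0.40 over the 15 settings. Of the list 49.0% lay above both controls and 5.88% below, beside 35.6% and 21.4% of all genes. There was no call among 51 (14 higher and 0 lower at an unadjusted p under 0.05). HSPA8, the constitutive HSP70 protein, had 4.32 and 4.98 in the controls and 5.37 and 5.85 in the silenced arrays (0.96, adjusted p = 0.114). The unfolded protein and integrated stress response list, in contrast, had a median of 0.21 with sh-SFPQ#2 and -0.22 with sh-SFPQ#3, and no call among 63 genes (7 higher and 1 lower at an unadjusted p under 0.05).

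Cholesterol and fatty acid synthesis genes lay low. Of 51 tested, 49.0% were below both controls and 11.8% above, beside 21.4% and 35.6% of all genes. In the list 41 had a change below 0, and the median was -0.26, between -0.50 and -0.15 over the 15 settings. The single call was ABCA1, a transporter that exports cholesterol and is no enzyme of its synthesis. It fell from 1.45 and 1.29 to -0.15 and -0.23 (-1.56, SE 0.18, adjusted p = 0.015). FADS2, a fatty acid desaturase, and LSS, which forms lanosterol, both named after their values were seen, had changes of -1.20 (adjusted p = 0.0822) and -1.02 (adjusted p = 0.0851). Of 69 genes of fatty acid oxidation and peroxisomes, ACOX2 and the carnitine transferase CPT1A rose, CPT1A by 1.43 (SE 0.25, adjusted p = 0.0469). None of that list fell, and of all genes 0.418% rose.

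**Figure D4:**
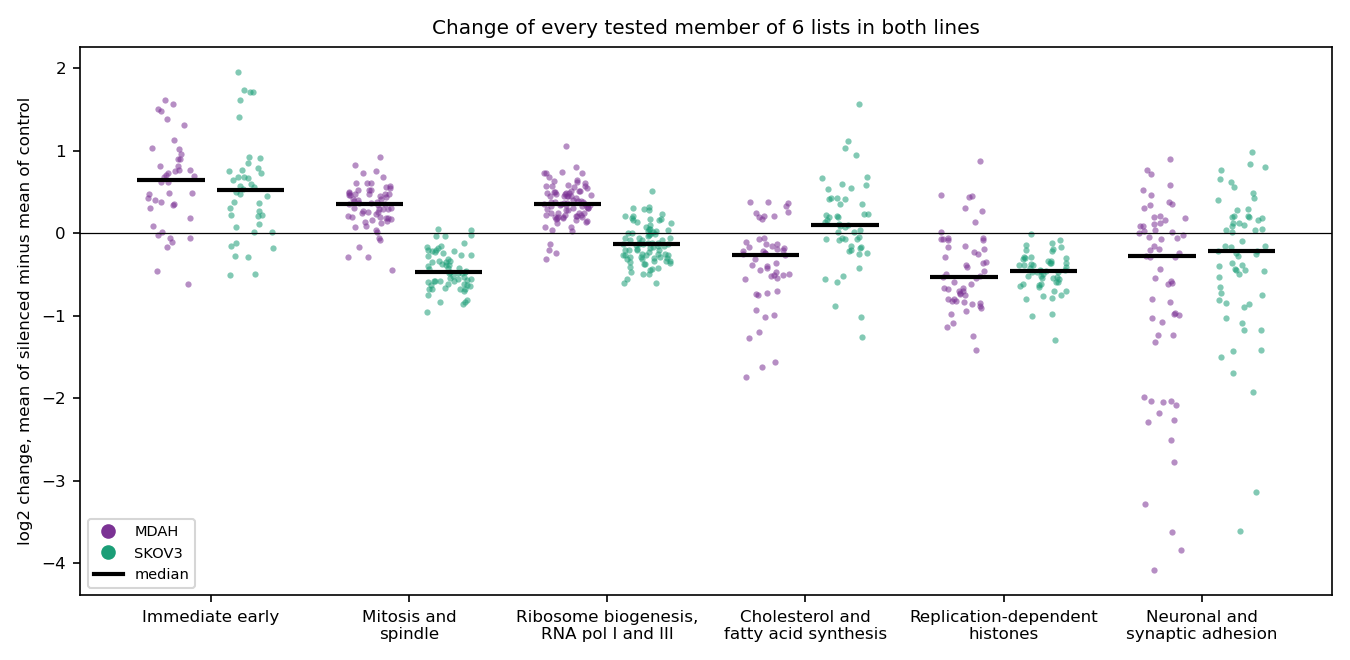
Log2 change (mean of silenced minus mean of control arrays) of every tested member of 6 lists in MDAH and in SKOV3 cells, with the median as a bar. In MDAH cells the medians are 0.65 for immediate early genes, 0.36 for mitosis, 0.35 for ribosome biogenesis, -0.26 for cholesterol and fatty acid synthesis, -0.53 for histones and -0.28 for neuronal adhesion molecules.

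None of the partners of SFPQ passed the test. Of 30 genes of the paraspeckle and DBHS list, SFPQ alone passed the test, and the median was 0.26. Of the list 60% lay above both controls and 10% below, beside 35.6% and 21.4% of all genes. With quantile normalization the median was 0.13, and 43.3% lay above and 23.3% below, beside 31.1% and 23.7% of all genes. NONO had levels of 4.82 and 4.85 in the controls and 4.98 and 5.03 in the silenced arrays (0.17, adjusted p = 0.588). PSPC1 had 0.96 and 0.99 and then 1.91 and 1.42 (0.69, adjusted p = 0.214), and NEAT1 had 6.02 and 6.26 and then 6.56 and 6.45 (0.37, adjusted p = 0.277). These are the values of 1 probe a gene: the other 3 NEAT1 probes, also well above background on all 4 arrays, changed by 0.71, 0.78 and 0.66, and the other NONO probe by 0.40, which were not tested singly. All 3 genes lay above both controls and did not pass, while MALAT1 overlapped (-0.04, adjusted p = 0.924).

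Of 78 SR proteins and splicing factors, 3 fell and none rose, where 1.61% of all genes fell. The median of the list was 0.10, as for all genes. Both silenced arrays lay above both controls for 38.5% and below them for 15.4%, beside 35.6% and 21.4% of all genes. KHDRBS2, a STAR-family splicing regulator of the brain, had levels of -1.86 and -1.58 in the controls and -6.33 and -5.80 in the silenced arrays, at least 5.04-fold lower, and it was well above background in the MDAH controls only. NOVA1, a neuronal splicing regulator, went from 0.58 and 0.41 to -1.43 and -2.29 (-2.35, SE 0.33, adjusted p = 0.0253). SRSF4, a general SR protein, was 4.66 in both controls and 3.85 and 3.56 in the silenced arrays (-0.96, SE 0.16, adjusted p = 0.0379). SRSF2, the SR protein of the SC35 speckle antigen, overlapped between the groups (0.21, adjusted p = 0.617).

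The study addressed the platinum response, and the groups of genes closest to it are given next. None of 48 apoptosis regulators passed the test (8 higher and 2 lower at an unadjusted p under 0.05). CASP9, the initiator caspase of the mitochondrial route, had levels of 1.82 and 1.86 in the controls and 2.20 and 2.31 in the silenced arrays (0.42, adjusted p = 0.26), measured by 1 probe whose place on the splice forms was not examined. CASP8 (0.21, adjusted p = 0.536) and BCL2L1 (-0.05, adjusted p = 0.92) overlapped between the groups. BIK, a pro-apoptotic BH3-only protein, had silenced levels of 3.69 and 4.18, above both controls (adjusted p = 0.126), and BCL2 (adjusted p = 0.216) was well above background on 1 silenced array.

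In DNA repair, FANCL, the ubiquitin ligase of the Fanconi anaemia core complex, fell from 3.51 and 3.65 to 2.51 and 2.47 (-1.09, SE 0.14, adjusted p = 0.0222). It was the one call among 50 genes of nucleotide excision and crosslink repair, and MSH4 the one call among 55 genes of double-strand break repair and damage signalling, shares near the 2.03% of all genes called.

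A few calls stood in several other lists. The serine protease PRSS23 (1.32), the ubiquitin ligase CBLC (0.91) and the microtubule minus-end protein CAMSAP1 (1.12) rose. The ubiquitin ligase subunits FBXL17, well above background on 1 silenced array, and KLHL13 (-1.02), the aryl hydrocarbon nuclear translocator ARNT2 (-1.51), the prenyl-binding protein PDE6D (-1.35), the water channel AQP1, at least 4.32-fold lower by its brightest probe with another probe of opposite direction, and the ovarian lineage factor MECOM, at least 1.62-fold lower, fell. No gene passed among 77 genes of the respiratory chain, with 0 higher and 2 lower at an unadjusted p under 0.05, or among 78 of the mitochondrial ribosome, with 4 higher and 3 lower.

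In all, 79 of the 316 called genes stood in one of the 48 lists, 25% beside 18.6% of the genes tested. Most calls therefore lie outside the groups described here.

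The SKOV3 arrays gave 155 calls (0.997%), 66 higher (0.425%) and 89 lower (0.572%), and 43 genes were called in both lines, which is 13.6% of the MDAH calls and 27.7% of the SKOV3 calls. Of those, 41 had the same direction. Of the 251 genes that fell in MDAH cells, 107 were well above background on all 4 SKOV3 arrays, and 73 of these (68.2%) had both silenced SKOV3 arrays below both SKOV3 controls, beside 32.7% of all genes so measured and 32.1% of all genes. Of the 65 that rose, 52 were measured in this way and 38 (73.1%) lay above, beside 26.3% and 25.9%. The longest genes had a median change of -0.46 in SKOV3 cells and -0.88 in MDAH cells.

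Some lists lay on opposite sides in the 2 lines. The mitosis median was 0.36 in MDAH and -0.47 in SKOV3 cells, where 56 of the 64 genes lay below both controls and none above. The medians of ribosome biogenesis were 0.35 and -0.14, and those of cholesterol and fatty acid synthesis -0.26 and 0.10. In SKOV3 cells the ribosome biogenesis median was -0.04 with sh-SFPQ#2 and -0.21 with sh-SFPQ#3. That of cholesterol and fatty acid synthesis was 0.03 and 0.12, and that of all genes -0.03 and -0.05, in the same order. Paraspeckle and DBHS genes had a median of 0.26 in MDAH and -0.21 in SKOV3 cells. The medians of heat shock proteins and chaperones were 0.28 and -0.14, and those of DNA replication and G1/S genes 0.33 and -0.10. Histones (-0.53 and -0.46) and immediate early genes (0.65 and 0.52) lay on the same side in both. The SKOV3 histone median rests mostly on 1 array, being -0.08 with sh-SFPQ#2 and -0.81 with sh-SFPQ#3. No gene of these lists passed the test of the difference between the lines, so none is called different.

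That test, the change in MDAH minus the change in SKOV3 cells, passed for 15 genes (0.0965%), with 2322 at an unadjusted p under 0.05. It was above 0 for 6 genes and below 0 for 9, and 7 of the 15 were also called in MDAH cells. KHDRBS2, FUT9, GRM8 and CHRM2 fell in MDAH cells and were not well above background on any SKOV3 array, so a fall there could not be measured and the test of the difference says nothing about one. FUT9, a fucosyltransferase that makes the Lewis x antigen, had levels of -2.16 and -2.51 in the MDAH controls and -5.83 and -6.10 in the silenced arrays, at least 3.28-fold lower. TNFSF14, the cytokine LIGHT, was called in opposite directions: it had -3.49 and -3.92 in the MDAH controls and -5.34 and -5.88 in the silenced arrays, at least 1.28-fold lower, and it was called higher in SKOV3 cells, whose controls were not well above background.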

How the data were processed

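RNA of MDAH and SKOV3 cells was hybridised to single-colour Agilent arrays, with 2 arrays in each of 4 groups, all on 1 slide and in 1 scan. Per the file headers, the authors let Feature Extraction subtract the background, and each deposited intensity is a spot's linear value without normalization between arrays. The headers name version 11.5.1.1 of that software and the submitters' processing notes 10.7.3.1. A deposited table of log2 signals, in which each probe is centred on its median over the arrays, served as an alternative. Its normalization steps are not described.

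After removal of control and outlier spots, replicate spots were averaged, the log2 signal was scaled to the 75th percentile of each array, and the probe with the highest mean stood for a gene. A gene was tested where both arrays of a group were well above background. The fit used limma 3.58.1 in R 4.3.3 on all 8 arrays in 4 groups, with 4 residual and 2.69 prior degrees of freedom and Benjamini-Hochberg adjustment over 15546 genes. Called means an adjusted p under 0.05 and both silenced arrays on the same side of both controls. No probe was saturated. The number of arrays limits the precision.

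Named are SFPQ, its partners and 5 genes of the study's question, the 15 largest called changes each way among genes well above background on all 4 MDAH arrays, up to 5 called genes per list and direction or else the 2 largest changes, and the 5 largest differences between the lines each way. The genes compared, the 48 lists, written from general knowledge, and the tests were chosen with earlier results of these data known. Some items are not reported here. Lists are described by counts and medians, without a test. The fit was tested on simulated data. Alternatives were the scaling, background correction, filter, probe rule, arrays fitted, prior, a replicate block and leaving out each MDAH array.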

Additional observations from a re-analysis of the deposited data

Results flagged for a closer look

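The change in MDAH cells minus the change in SKOV3 cells passed limma's adjusted test for the named genes that follow. It was -5.02 for NCKAP5, which was not well above background on any MDAH array and rose in SKOV3 cells, and -4.94 for TNFSF14, which was called lower in MDAH and higher in SKOV3 cells and was not well above background on the silenced MDAH arrays or the SKOV3 controls. It was -4.14 for KHDRBS2, -3.46 for FUT9, -3.08 for GRM8 and -2.91 for CHRM2, which fell in MDAH cells and were not well above background on the silenced MDAH arrays or on any SKOV3 array, so that a fall in SKOV3 cells could not be measured. It was 6.08 for CLEC12A, 4.78 for MS4A12, 4.10 for DRD5 and 4.07 for ITGAD, which fell in SKOV3 cells and were not well above background on any MDAH array. For these 4 genes the difference rests on the SKOV3 arrays, and their positive MDAH values lie below the level at which a probe counts as measured. These values rest in part on probes not well above background and are not sizes of a difference between the lines. The cause of the differences was not tested.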

How the results depend on the processing

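Of the 316 called genes, each that was measured kept its direction with another background correction, scaling, filter or choice of probes, except MSI2 (-0.17), HIPK2 (-1.38) and KALRN (-0.10) with the probes of a gene averaged. In the fits without 1 array the rule for a call fixes the direction. The count of calls was 622 with normexp and quantile normalization (183 higher and 439 lower), 92 with genes well above background on all 4 MDAH arrays (29 and 63) and 143 with the MDAH arrays alone (15 and 128). Genes called higher, 65 as reported, were 100 with median centring and 122 with a trend and robust prior, and genes called lower, 251 as reported, were 155 with no filter on dim probes. With the replicate block there were 91 calls, 7 higher and 84 lower, of which 60 were among those reported. Within MDAH cells the numbers of controls and shRNAs pair no samples by their labels, and the deviations of same-numbered control and silenced MDAH arrays had r = -0.10 over genes; for silenced arrays of the same shRNA in the 2 lines, which the reported fit does not pair, r was 0.36 and for same-numbered controls 0.08.

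Without 1 MDAH array the count lay between 9 and 1091, that of genes called higher between 0 and 303 and that of genes called lower between 9 and 788. The lowest came without control 1 (no gene higher by limma's adjusted p, 1730 genes of either direction at an unadjusted p under 0.05) and the highest without sh-SFPQ#2. In these fits the lone array is assumed to vary like the other groups. The MDAH minus SKOV3 difference, 15 genes by limma's adjusted p as reported, was passed by 23 genes with median centring, 29 with quantile normalization, 28 with the deposited table, 32 with the probes averaged, and 0 with normexp, with genes well above background on all 4 MDAH arrays, with the trend and robust prior and with the replicate block; without 1 MDAH array it lay between 0 and 182. The cause of these changes was not tested.

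Median centring moved the median change of all genes from 0.10 to 0.21 and the share of calls that were lower from 79.4% to 62.7%. The medians of histones, cholesterol and fatty acid synthesis, genes of 100 to 300 kb and genes over 300 kb were below 0, and those of immediate early genes, mitosis, DNA replication, ribosome biogenesis, interferon-stimulated genes, heat shock proteins, apoptosis regulators and paraspeckle genes above 0, in all 15 settings. The median of receptor tyrosine kinases and ligands was above 0 in 2. The dimmer silenced arrays limit the decreases: 129 of the 251 genes that fell have at most a bound.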
